A study of Mus musculus with 28 samples.

Results

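DNMT TKO and wild type mouse embryonic stem cells (ESCs) were compared after the same Kap1 knockdown, using RNA-seq counts over genes and over single transposable elements (TEs). The 6 libraries that carry the Kap1 hairpin in these genotypes were chosen by their labels out of 28 samples in the series, of which 16 are RNA-seq libraries. 3 of them come from wild type (WT) cells and 3 from DNMT TKO cells, a line in which Dnmt1, Dnmt3a and Dnmt3b are knocked out. Both genotypes are of the J1 line of strain 129S4/SvJae. They were grown without feeders in N2B27 medium with LIF and the MEK and GSK3 inhibitors known as 2i, transduced with the shRNA vector, selected in puromycin and collected 5 days later. The same genotypes with the empty vector (shEmpty, 3 libraries each) give the genotype difference while KAP1 is present. Each genotype is a single line, so that the knockout and other differences between the lines cannot be told apart. The replicates are described as independent experiments. For genes, p-values rest on the spread between replicates within lines, estimated over 16 RNA-seq libraries (TET knockout cells included) with information shared between genes. For single TEs they rest largely on a spread pooled over elements, as described with the TE counts.

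KAP1, encoded by Trim28, is a corepressor that KRAB zinc finger proteins bring to TEs and to some gene regulatory sequences. It recruits SETDB1, which places trimethylation on lysine 9 of histone H3 (H3K9me3). DNA methyltransferases add methyl groups to CpG dinucleotides, DNMT1 mainly at replication and DNMT3A and DNMT3B de novo. Both systems keep retrotransposons silent, and DNA methylation also keeps promoters of germline genes and 1 allele of imprinted genes silent. In naive ESCs grown in 2i the methylation of the genome is low. Mouse TEs include LTR elements, or endogenous retroviruses (ERVs), such as intracisternal A particles (IAP), ETn and MERVL, and L1 elements, which are LINEs without LTRs.

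The sequences that carry the comparison are the target of the hairpin and promoters of genes that were higher in DNMT TKO cells. The hairpin targets the following 21 bases, which match 1 transcript of the annotation, that of Trim28, and no other gene.
shKap1 target: ccgcatgttcaaacagttcaa
The promoters span 250 bases before to 50 bases after the start of transcription and are taken from RefSeq on GRCm38.p6, with each CpG in capitals. Hormad1 (chr3:95559427-95559726, plus strand), a gene of meiotic chromosome axes, and Fkbp6 (chr5:135349995-135350294, minus strand), which takes part in the piRNA pathway of the germline, show the CpG-rich kind, with 24 and 21 CpGs. Xlr3a (chrX:73097046-73097345, minus strand) and Magea5 (chrX:155061504-155061803, minus strand), members of X-linked gene families expressed in testis, show the CpG-poor kind, with 5 and 0 CpGs.
Hormad1: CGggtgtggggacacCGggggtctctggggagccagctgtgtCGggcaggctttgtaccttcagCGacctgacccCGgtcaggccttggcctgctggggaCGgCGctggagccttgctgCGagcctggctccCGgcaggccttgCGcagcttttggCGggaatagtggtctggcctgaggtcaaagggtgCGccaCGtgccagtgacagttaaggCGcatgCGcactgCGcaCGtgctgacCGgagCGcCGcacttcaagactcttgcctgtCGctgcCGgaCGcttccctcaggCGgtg
Fkbp6: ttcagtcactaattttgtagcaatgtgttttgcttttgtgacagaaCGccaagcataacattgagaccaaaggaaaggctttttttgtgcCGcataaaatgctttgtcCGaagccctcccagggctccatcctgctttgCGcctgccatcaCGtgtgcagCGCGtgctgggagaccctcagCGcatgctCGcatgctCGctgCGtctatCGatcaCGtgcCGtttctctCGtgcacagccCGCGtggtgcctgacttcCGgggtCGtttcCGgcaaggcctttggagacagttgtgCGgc
Xlr3a: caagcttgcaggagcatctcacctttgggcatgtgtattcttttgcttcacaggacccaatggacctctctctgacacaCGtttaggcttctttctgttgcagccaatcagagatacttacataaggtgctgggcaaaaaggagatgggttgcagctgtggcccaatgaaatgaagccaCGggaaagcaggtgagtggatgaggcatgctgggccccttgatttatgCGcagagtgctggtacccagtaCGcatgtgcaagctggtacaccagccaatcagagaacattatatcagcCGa
Magea5: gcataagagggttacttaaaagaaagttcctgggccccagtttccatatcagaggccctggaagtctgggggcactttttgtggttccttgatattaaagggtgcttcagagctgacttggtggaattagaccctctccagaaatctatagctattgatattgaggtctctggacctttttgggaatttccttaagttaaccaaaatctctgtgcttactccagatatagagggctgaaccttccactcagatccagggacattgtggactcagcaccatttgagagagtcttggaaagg

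The 6 knockdown libraries held 18108431 to 26155244 reads on genes and 1280001 to 1803819 reads on TEs. Levels are given in CPM, read counts scaled to 1000000 gene reads of a library after TMM scaling, are not divided by length, and are compared between libraries and not between genes. ± marks the SD over 3 libraries. A feature was called higher or lower when the adjusted p was below 0.05 and the difference was at least 2-fold in edgeR's quasi-likelihood test. SE stands for the size of the fitted log2 difference divided by the square root of that test's F statistic. It is an approximation and is unreliable where a group has few reads.

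The transcripts that were targeted differed as labelled, but the knockdown left more Kap1 transcript in DNMT TKO cells. Trim28 stood at 190, 156 and 149 CPM in the WT knockdown libraries and at 327, 448 and 506 CPM in the DNMT TKO ones. All 3 DNMT TKO libraries lay above all 3 WT libraries. This was 9.42 ± 1.25% of the shEmpty level in WT and 22.9 ± 4.90% in DNMT TKO cells (n = 3 each). The genotype difference was 1.37 on the log2 scale (SE 0.148, adjusted p = 5.4e-06) after knockdown, and 0.09 (SE 0.144, adjusted p = 0.645) without it. The difference between these was 1.28 (adjusted p = 0.0008). Every comparison after knockdown is thus between cells with unequal Kap1 transcript left, and the part of this inequality in the results that follow was not tested. Dnmt1 was at 424 ± 3.59 CPM in WT and 135 ± 3.70 CPM in DNMT TKO knockdown libraries. Dnmt3a was lower by 9.86-fold and Dnmt3b by 7.36-fold. The counts cover all exons, those outside the deleted parts included.

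Markers of ESCs were present in both genotypes. Pou5f1, Nanog and Esrrb encode transcription factors of pluripotency. Pou5f1 lay between 549 and 779 CPM, Nanog between 607 and 885 CPM and Esrrb between 394 and 485 CPM over the 6 libraries, and none of these was called. Of 8 ESC markers listed, Sox2 and Zfp42 were called higher and 6 were not called, beside 11.3% of all genes higher and 8.37% lower. Fibroblast markers were low throughout, with a summed level over 10 tested markers of 9.80 to 13.3 CPM in WT and 18.8 to 21.2 CPM in DNMT TKO knockdown libraries. Of these 10 markers, 4 (40%) were called higher (Col1a1, Col6a3, Postn and Thy1) and 0 lower, beside 11.3% and 8.37% of all genes. Without knockdown 2 of the 4 were also higher, beside 8.23% of all genes. The call of Thy1 was lost in 3 other settings. Lum and Postn had 0 reads in the WT libraries. Col1a1, a collagen chain, rose from 0.987 to 5.76 CPM and supplied most of the gain.

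Of 20321 genes tested, 2299 (11.3%) were higher and 1701 (8.37%) lower in DNMT TKO than in WT cells after Kap1 knockdown. Without knockdown, 1673 (8.23%) were higher and 1635 (8.05%) lower. Of the genes higher after knockdown, 1073 were also higher without it, which is 46.7% of the former and 64.1% of the latter. Of the genes lower after knockdown, 861 were also lower without it, or 50.6% and 52.7%. These comparisons share no library. The genotype difference itself changed with knockdown for 1450 genes (7.14%), tested as the difference of the differences, of which 946 (4.66%) shifted up and 504 (2.48%) down. Of the 1185 genes called higher after knockdown and not called without it, 384 passed this test in the same direction, as did 153 of the 826 genes lower after knockdown alone. For the others a change with knockdown was not shown. A further 41 genes were higher after knockdown and lower without it, and 14 the opposite.

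**Figure D1:**
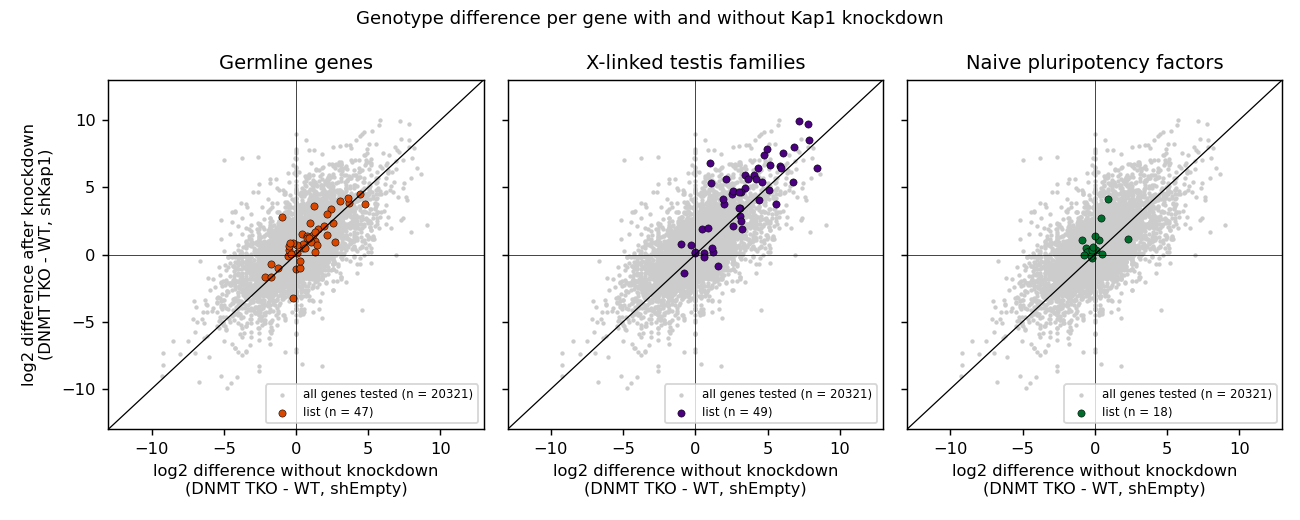
Each grey point is one of 20321 genes, with the log2 difference between DNMT TKO and WT cells without knockdown on the x axis and after knockdown on the y axis. The diagonal marks equal differences, and coloured points are the germline genes, the testis gene families of the X chromosome and the naive pluripotency factors. Germline and X-linked genes spread along the diagonal on the upper right, while Tcl1 (4.11 after and 0.95 without knockdown) and Prdm14 (2.72 and 0.46) stand above it.

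The genes with the largest rises were low in WT cells after knockdown. Of the 15 genes named for their rise, 11 are annotated as protein-coding. Hemt1 had 0 reads in all WT knockdown libraries and 5.04, 6.49 and 4.56 CPM in the DNMT TKO ones, at least 108-fold higher. Magea5 and Magea8 had 1 read each over the WT knockdown libraries. Magea5 stood at 22.1, 21.8 and 20.2 CPM in DNMT TKO cells after knockdown and at 17.5, 18.0 and 18.8 CPM without it, so that it was on in DNMT TKO cells in either state. Its ratio after knockdown was 1294, with a 95% counting interval of 232 to 51164. Spesp1, which encodes a protein of the sperm equatorial segment, stood at 0.105, 0.130 and 0.0533 CPM in WT and at 19.4, 40.0 and 27.1 CPM in DNMT TKO knockdown libraries. It was already higher by 3.72 (log2) without knockdown, and the difference grew by 4.40 (SE 1.14, adjusted p = 0.0144). Inpp4b, a lipid phosphatase of phosphoinositide signalling, was at 2 reads over the WT knockdown libraries and between 5.09 and 14.2 CPM in DNMT TKO cells. Sgcz, a sarcoglycan, 1700011F14Rik and the pseudogene Gm14094 were about as high in DNMT TKO cells with the empty vector as after knockdown.

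Others among the rises were high in DNMT TKO cells with the Kap1 hairpin and far lower in the other groups. Rassf4, a member of the RAS association domain family, gave the clearest case. It stood at 1.26, 0.953 and 1.71 CPM in WT and at 252, 158 and 146 CPM in DNMT TKO knockdown libraries, and at 3.49 to 4.92 CPM in the 6 shEmpty libraries. The difference after knockdown was 7.16 (log2, SE 0.260) and that without it -0.10 (adjusted p = 0.784), and the change between them was 7.27 (SE 0.373, adjusted p = 2.85e-08). 1700018A04Rik was at 20.3, 17.9 and 18.1 CPM in DNMT TKO knockdown libraries, and at no more than 0.116 CPM in any library of the other 3 groups. Its change with knockdown was 6.87 (adjusted p = 0.0132), which was lost without WT shEmpty replicate 3. Gm14047, at 7.34 to 16.8 CPM, and D930020E02Rik, at 7.01 to 11.3 CPM, behaved likewise, with 0 reads in DNMT TKO shEmpty libraries. Slpi, a secreted inhibitor of leukocyte proteases, was at 12.8 to 21.5 CPM in DNMT TKO knockdown libraries and at most 0.116 CPM elsewhere. Its change with knockdown was 6.52 but did not pass the test (adjusted p = 0.153), with 1 to 3 reads in each shEmpty group. Olfml2a, which encodes an extracellular matrix protein, rose from 0.157, 0.606 and 0.746 CPM in WT to 30.9, 22.5 and 21.4 CPM in DNMT TKO cells after knockdown, a change with knockdown of 7.00 (adjusted p = 1.96e-06).

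The largest falls divided in the same way. Mid1, a ubiquitin ligase gene of the X chromosome, stood at 484, 388 and 392 CPM in WT and at 2.31, 2.45 and 2.52 CPM in DNMT TKO knockdown libraries. The genotypes were somewhat further apart without knockdown (473, 415 and 414 against 1.73, 1.66 and 1.62 CPM). The change was 0.59 (log2, adjusted p = 0.0389), short of 2-fold. Trim12a, of the TRIM5 group of antiviral genes, was at 16.6 to 20.3 CPM in WT and at 2 reads in DNMT TKO knockdown libraries. Rps3a, a ribosomal protein gene, was at 394 to 431 CPM in WT and 9.08 to 12.6 CPM in DNMT TKO cells. It has many near-identical copies in the genome, so that its unique reads are uncertain. Gm13394, Gm14567 and Gm6673 are annotated as pseudogenes and were low in DNMT TKO cells in both states.

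Ctsh, Hoxb1, Chit1 and AA792892 instead had their highest levels in the WT knockdown libraries and were low in the DNMT TKO ones. Ctsh, the lysosomal protease cathepsin H, stood at 57.8, 84.2 and 89.0 CPM in WT knockdown libraries, and at 0.240, 0.282 and 0.260 CPM in DNMT TKO ones. In shEmpty libraries it was at 0.167 to 0.518 CPM in both genotypes. The difference after knockdown was -8.18 (log2, SE 0.251), without it 0.42 (adjusted p = 0.494), and the change with knockdown was -8.60 (SE 0.635, adjusted p = 5.79e-08). Hoxb1, a homeobox gene of the hindbrain, was at 9.86, 20.0 and 19.2 CPM in WT against 0.192, 0.235 and 0.223 CPM in DNMT TKO knockdown libraries. Its change with knockdown (-4.34, adjusted p = 0.0514) just missed the threshold. Chit1, a chitinase, was at 34.1, 45.8 and 48.0 CPM in WT and between 0.0941 and 0.913 CPM in DNMT TKO cells, a change with knockdown of -3.53 (adjusted p = 0.00117). AA792892 was at 18.8, 19.8 and 20.2 CPM in WT and at 1 read over the DNMT TKO knockdown libraries.

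**Figure D2:**
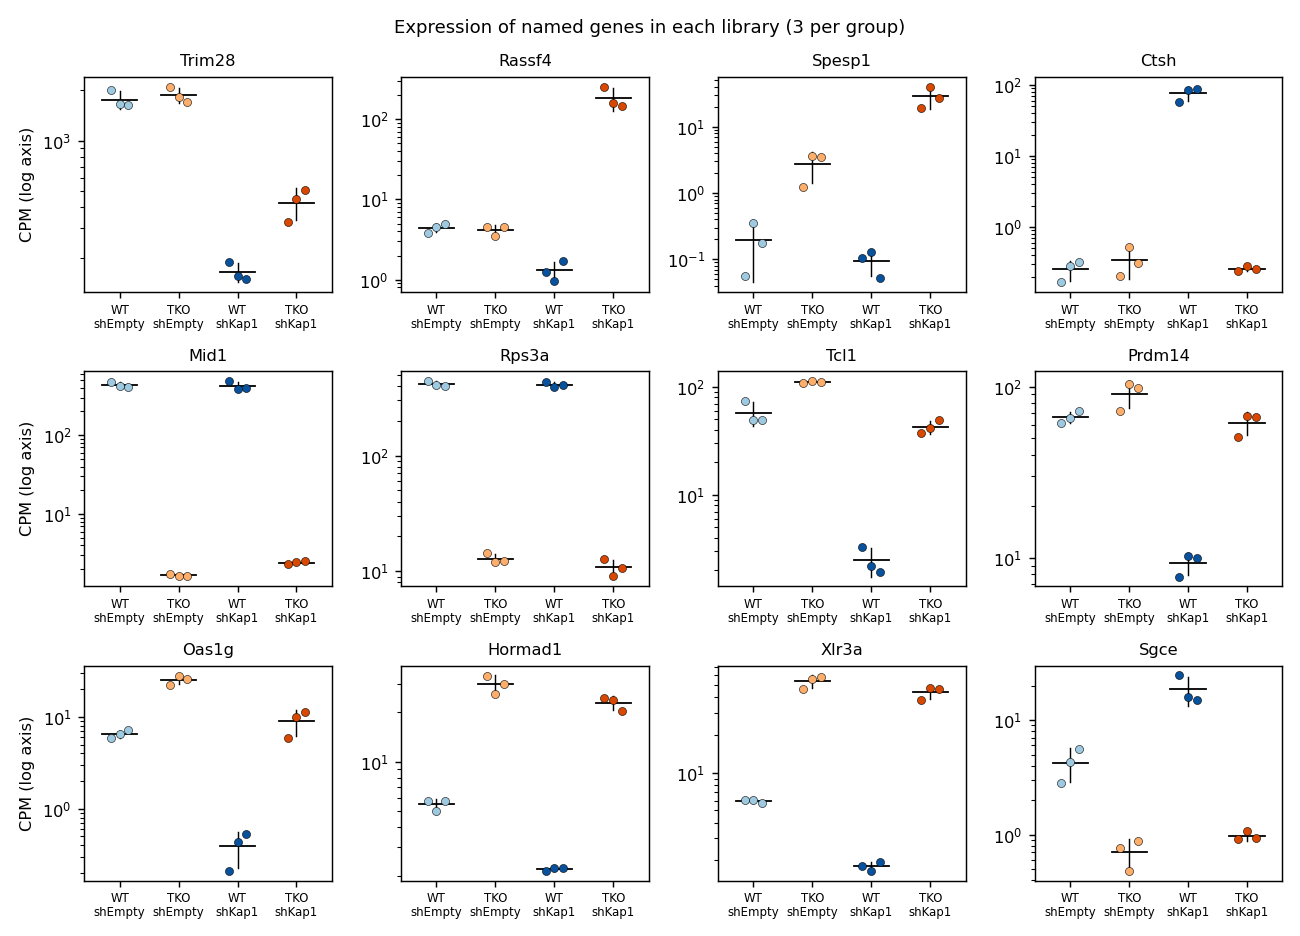
Points are libraries, 3 per group, of WT and DNMT TKO (TKO) cells with the empty or the Kap1 hairpin, on log axes of CPM that differ in range between panels. Horizontal lines are group means and vertical lines 1 SD. Rassf4 is high in DNMT TKO shKap1 libraries alone (146 to 252 CPM), Ctsh in WT shKap1 libraries alone (57.8 to 89.0 CPM), and Mid1 and Rps3a are low in DNMT TKO cells with either hairpin.

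Among the genes whose genotype difference changed most with knockdown, several differed without knockdown and were level or closer after it. Nlrp9b, an NLRP gene expressed in oocytes, was at 0.814 to 1.22 CPM in WT and 21.1 to 22.9 CPM in DNMT TKO shEmpty libraries. After knockdown WT cells were at 58.0, 42.7 and 44.4 CPM and DNMT TKO cells at 41.7, 38.6 and 39.3 CPM, a difference of -0.28 (log2, SE 0.125, adjusted p = 0.0751). Dcdc2a, a doublecortin family gene, and the lens crystallin gene Crygc followed the same course, with changes of -4.68 and -4.83. Gm14443 stayed higher in DNMT TKO cells after knockdown (32.2 to 36.7 against 8.44 to 8.74 CPM), but the difference was 6.60 (log2) without knockdown and 1.98 with it. Khdc1a and Cyp4a12b had 0 reads in WT shEmpty libraries, so that their fitted changes depend on the prior count. In the opposite direction, 1190002H23Rik was at 7.36 to 10.0 CPM in WT and at most 0.102 CPM in DNMT TKO shEmpty libraries, and at 0.736 to 1.42 against 0.668 to 0.847 CPM after knockdown. Sh3tc2, a gene of peripheral nerve myelination, was lower in DNMT TKO cells without knockdown (-4.42) and higher after it (2.39). Pramel7, a PRAME family gene of the early embryo, was at 5.72 to 24.0 CPM in all shEmpty libraries. After knockdown it was at 0.105 to 0.217 CPM in WT cells and at 8.93 to 10.3 CPM in DNMT TKO cells.

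Germline genes gave a large share of higher calls. Of 47 tested members of a list of germline genes, 24 (51.1%) were higher and 4 (8.51%) lower after knockdown, beside 11.3% and 8.37% of all genes. The list was drawn up for genes described as silenced by promoter methylation, which was not measured in these libraries. The median difference was 1.03 on the log2 scale, beside 0.01 over all genes. Without knockdown 20 were higher, beside 8.23% of all genes, 16 of them the same genes, and the median was 0.89. Hormad1 stood at 2.15, 2.25 and 2.24 CPM in WT and at 24.5, 23.8 and 20.5 CPM in DNMT TKO knockdown libraries (log2 difference 3.37, SE 0.145, adjusted p = 4.36e-12). With the empty vector it was at 5.02 to 5.78 and 25.9 to 33.6 CPM, and the change of the difference was 0.93 (adjusted p = 0.0023), short of 2-fold. Fkbp6 was at 17.7, 18.2 and 18.6 against 89.7, 73.1 and 69.2 CPM. Stk31, a kinase-like gene of spermatogenesis, was at 8.32 to 9.48 against 39.5 to 47.8 CPM, and Tuba3a, a testis alpha tubulin, at 5.50 to 8.01 against 51.5 to 63.9 CPM. Dazl, an RNA-binding protein of germ cells named here after its value was seen, had the largest difference of the list, at 10.4, 14.1 and 14.2 against 281, 355 and 266 CPM. With the empty vector it was at 17.2 to 25.6 and 382 to 535 CPM, and the difference did not change with knockdown (0.07, SE 0.242). Members that changed with knockdown numbered 6 upward and 3 downward of 47, beside 4.66% and 2.48% of all genes. Brdt, a testis bromodomain gene also named after its value was seen, was at 1.42, 2.30 and 1.97 CPM in WT and at 13.98, 14.5 and 10.9 CPM in DNMT TKO knockdown libraries, against 0.783 to 1.27 and 0.414 to 0.617 CPM without knockdown (change 3.76, adjusted p = 1.98e-06). The lower members were Spo11, Dmc1, Tdrd1 and Ddx25, which act in meiotic recombination, the piRNA pathway and spermatid RNA handling.

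The testis gene families of the X chromosome (Rhox, Magea, Mageb, Xlr, Slx and Ssxb) were mostly higher where they could be tested. Of 49 tested members out of 84 in the files, 37 (75.5%) were higher and 1 (2.04%, Rhox6) lower after knockdown. Among all genes 11.3% were higher and 8.37% lower. The median difference of the tested members was 4.64 (log2), beside 3.14 without knockdown. The change passed for 7 upward and 1 downward, beside 4.66% and 2.48% of all genes. Members near 0 in WT cells passed the minimum of 16 reads over all libraries only through libraries that express them, so that these shares hold for the tested members and support nothing about the 84. The median rests partly on members with 0 WT reads, whose fitted values depend on the prior count, and the families hold near-identical copies whose unique reads are uncertain. Xlr3a stood at 1.78, 1.65 and 1.92 CPM in WT and at 38.0, 47.9 and 46.7 CPM in DNMT TKO knockdown libraries. Without knockdown the levels were 5.73 to 6.11 and 46.4 to 58.3 CPM, a change of 1.47 (adjusted p = 1.31e-05). Xlr4b and Xlr4a differed by 5.61 and 5.41. Over all genes of the X chromosome, 18.0% were higher.

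The germline list was drawn up for genes with CpG-rich promoters, so that its CpG content is no result, while the X-linked families were listed by name. A promoter was matched for 11984 of the 20321 genes. The median number of CpGs in 300 bases was 19 over all genes, 9 in the genes called higher, 14 in those lower and 20 in those called neither. It was 18 in the germline list, where Hormad1 and Fkbp6, with the sequences shown above, have more, and 7 in the X-linked families. The letters CACGTG, a palindrome known as an E-box, were in 18 of 39 germline promoters (46.2%), in 11.01% of promoters of tested genes and in 7.15% of all 32851 promoters of the table. Hormad1 and Fkbp6 hold it. GCGGGA or its reverse complement, TCCCGC, was in 43.6% of germline promoters and 36.4% of those of tested genes, and TGCCGC or GCGGCA in 17.9% and 20.4%. Of the 24 germline genes called higher, 20 had a matched promoter. In these the 3 motifs had shares of 40%, 30% and 35%. In the matched promoters of all genes called higher the shares were 9.90%, 26.0% and 14.8%. Of 16 promoters of p53 targets, 7 (43.8%) also hold the E-box. A match describes the letters and is no binding site. A peak of H3K4me3 from ESCs, a mark of active or poised starts, lay within 1 kb of 46.2% of the genes called higher and 66.7% of those lower, beside 69.3% of all tested genes. H3K27me3, a Polycomb mark, lay within 10 kb of 26.5% of the higher and 27.9% of the lower genes, beside 15.9%. KAP1 regions lay within 10 kb of 16.6% of the higher genes and 16.6% of the lower genes, beside 15.4% of all.

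Imprinted genes gave more lower than higher calls. Of 44 tested, 11 (25.0%) were lower and 3 (6.82%) higher after knockdown, beside 8.37% and 11.3% of all genes. Without knockdown 11 were lower and 6 higher, beside 8.05% and 8.23% of all genes. The change passed for 9 downward and 2 upward, beside 2.48% and 4.66% of all genes. Sgce, a sarcoglycan gene expressed from the paternal allele, stood at 24.5, 16.02 and 15.1 CPM in WT and at 0.913, 1.08 and 0.927 CPM in DNMT TKO knockdown libraries. Its level was 2.83 to 5.63 and 0.483 to 0.887 CPM with the empty vector, and the difference grew by 1.63 (log2, adjusted p = 0.0112) in the direction of the fall. Its neighbour Peg10, a domesticated retrotransposon gene named after its value was seen, was at 2541, 1134 and 1051 CPM in WT and 60.7, 56.2 and 52.0 CPM in DNMT TKO knockdown libraries. H19, a noncoding RNA expressed from the maternal allele, was at 15.5, 10.999 and 10.7 against 0.576, 0.799 and 0.742 CPM, and Nnat, a neuronal membrane protein gene, at 4.105 to 5.45 against 0.141 to 0.371 CPM. Zdbf2 was lower by 1.11 (log2). Without knockdown the differences of H19, Nnat and Zdbf2 were already -3.11, -3.52 and -1.02 (log2). Their changes with knockdown did not pass (adjusted p = 0.194, 0.592 and 0.660). The higher members were Dio3, Usp29 and Zim1.

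Several naive pluripotency factors were higher in DNMT TKO cells after knockdown. Of 18 tested, 6 (33.3%) were higher and 0 lower after knockdown, beside 11.3% and 8.37% of all genes. Without knockdown 1 was higher, near the 8.23% of all genes. The difference changed with knockdown for 5 upward and 1 downward, beside 4.66% and 2.48% of all genes. Tcl1, a coactivator of AKT, stood at 49.4 to 74.1 CPM in WT shEmpty libraries, at 3.30, 2.21 and 1.92 CPM in WT knockdown libraries and at 37.3, 41.2 and 49.1 CPM in DNMT TKO knockdown libraries (change 3.16, adjusted p = 1.39e-06). Prdm14, a repressor that guards the naive state, was at 7.76, 10.3 and 9.92 against 50.8, 67.7 and 66.2 CPM, and the T-box factor Tbx3 at 46.0, 56.8 and 59.1 against 142, 145 and 142 CPM. Zfp42, also known as Rex1, was higher after knockdown (91.6 to 109 against 195 to 255 CPM), but its difference was larger without it, a change of -1.17 (adjusted p = 8.4e-07). Sox2, of the core factors, was at 125 to 134 against 248 to 296 CPM. The Kap1 transcript left was higher in the same DNMT TKO libraries, and its part was not tested.

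Many genes of the 2-cell state, a rare state of ESCs that resembles the cleavage embryo, were lower. Of 29 tested, 13 (44.8%) were lower and 3 (10.3%) higher after knockdown, beside 8.37% and 11.3% of all genes, with a median difference of -0.96 (log2). Without knockdown 3 were lower and 2 higher, near the 8.05% and 8.23% of all genes. The change itself passed for 3 downward and 0 upward, beside 2.48% and 4.66% of all genes. For most of the 13 a change with knockdown was thus not shown. Dub3, a ubiquitin hydrolase gene, stood at 45.7, 41.4 and 40.3 CPM in WT and at 4.90, 7.57 and 5.53 CPM in DNMT TKO knockdown libraries, and at 1.27 to 6.90 CPM in all shEmpty libraries (change -2.23, adjusted p = 0.00466). Dub1 changed by -2.44. Zscan4b, of the family that gives the state its usual marker, was at 35.8, 37.8 and 34.5 against 5.28, 12.4 and 7.27 CPM, but its change with knockdown was -0.30 (SE 0.544), since it was also lower without knockdown. Tdpoz3 was lower by 1.53 (log2). The families hold near-identical copies, and in bulk samples fewer cells in this state and less RNA per cell cannot be told apart. Here too the Kap1 transcript left was higher in the DNMT TKO libraries.

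**Figure D3:**
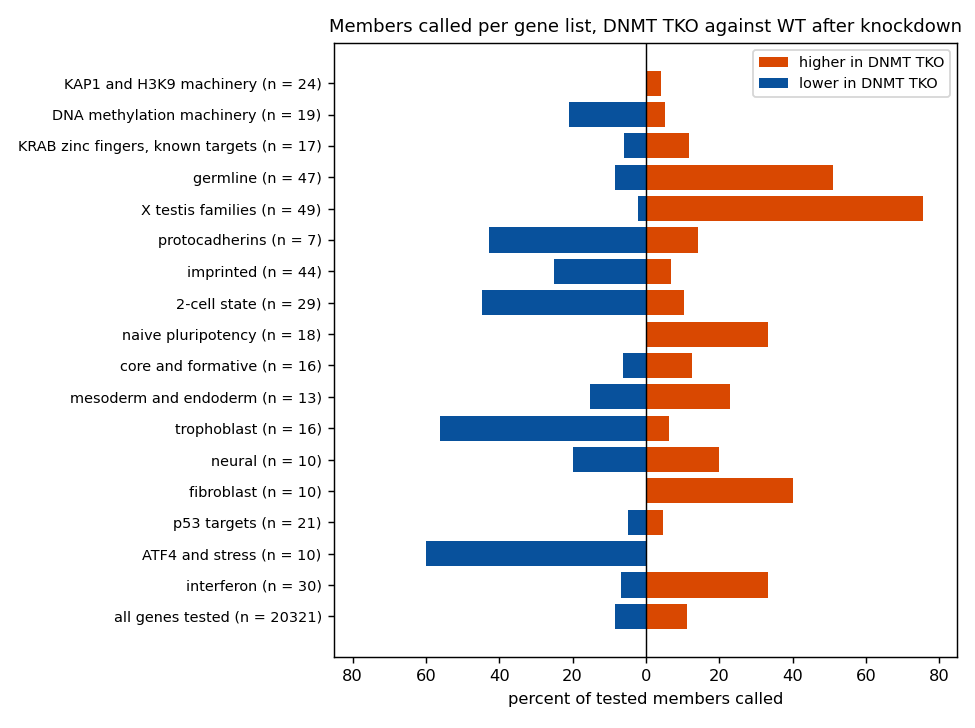
Bars give the percent of tested members of each gene list called higher (to the right) or lower (to the left) in DNMT TKO than in WT cells after knockdown, with the number of tested members in the row labels. The lowest row gives all genes tested (11.3% and 8.37%). The X-linked testis families are shown for the tested members alone, of which those near 0 in WT cells passed the read minimum only through libraries that express them. Germline genes (51.1% higher), ATF4 and stress genes (60.0% lower), trophoblast genes (56.2% lower) and 2-cell genes (44.8% lower) lie far from the lowest row.

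Among trophoblast genes and stress genes under ATF4 the share lower, and among interferon genes the share higher, lay above the shares of all genes (8.37% lower and 11.3% higher). Of 16 trophoblast genes, 9 (56.2%) were lower and 1 higher after knockdown, and 9 and 2 without it, where 8.05% of all genes were lower and 8.23% higher. The change passed for 2 downward and 0 upward, beside 2.48% and 4.66% of all genes. 1600029D21Rik, listed as the trophoblast marker Plet1, was at 90.9, 80.6 and 75.1 against 11.2, 8.98 and 10.1 CPM, and Krt18, a keratin of simple epithelia, at 19.1 to 19.6 against 1.505 to 2.88 CPM. Tcfap2a, the transcription factor AP-2 alpha, was the higher member. Of 10 genes of amino acid and unfolded protein stress, 6 (60.0%) were lower and 0 higher in either state. Atf4, the transcription factor that controls them, was at 503, 521 and 550 against 236, 259 and 267 CPM, and Chac1, which degrades glutathione, at 32.0, 51.9 and 50.3 against 6.20, 10.9 and 11.6 CPM. None of the 10 changed with knockdown beyond the threshold. Of 30 interferon and nucleic acid sensing genes, 10 (33.3%) were higher and 2 (6.67%) lower after knockdown, the latter near the share of all genes, and 7 and 5 without it. The change passed for 5 upward and 0 downward, beside 4.66% and 2.48% of all genes. Oas1g, a sensor of double-stranded RNA, was at 0.210, 0.433 and 0.533 against 5.96, 9.92 and 11.3 CPM, and at 5.94 to 7.15 against 22.6 to 28.2 CPM without knockdown, a change of 2.54 (adjusted p = 8.44e-05). Oas1a and the apoptosis factor Xaf1 changed by 1.84 and 1.49 in the same direction, while Bst2, which tethers virions, was lower by 1.24 (log2).

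The other lists had few called members or were small, beside 11.3% of all genes higher and 8.37% lower. Of 24 gene records tested for the 23 listed genes of KAP1 and the H3K9 methylation machinery, Trim28 alone was called. Of 19 genes of the DNA methylation machinery, the 3 knocked-out genes and Mbd2 were lower and Dppa3 higher. The call of Mbd2, at -1.01 (log2), was lost in 5 other settings. Among listed KRAB zinc finger records with known targets, Zfp951 was higher and Zfp429 lower, and Zfp42, also counted there among 17, has no KRAB domain and is described with the naive factors. Of 7 clustered protocadherins tested, 3 were lower and Pcdha11 was higher. Core and formative pluripotency genes gave 2 higher (Sox2 and Otx2) and 1 lower (Lin28a) of 16, mesoderm and endoderm regulators 3 and 2 of 13, neural genes 2 and 2 of 10, and p53 targets 1 and 1 of 21. Pmaip1, a BH3-only gene among the p53 targets, was at 138, 182 and 181 against 81.1, 75.1 and 62.3 CPM after knockdown, and at 50.5 to 65.1 against 1.57 to 4.40 CPM without it (change 3.09, adjusted p = 1.38e-05).

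Of 123880 single TEs tested, 8799 (7.10%) were higher and 7790 (6.29%) lower in DNMT TKO cells after knockdown. The p-value of edgeR's test reached 8.6e-259 for a LINE element (chr12:23012899-23014753), with 3 libraries per group. A value this small cannot come from the spread of an element's own replicates alone. The edgeR calls of single TEs thus rest largely on a spread pooled over elements, and do not measure that of each element. DESeq2 called 6945 in all, where edgeR called 16589, so that the count depends on the tool. The balance of directions was not stable either, with 6857 higher and 7098 lower without WT shKap1 replicate 1, and 10011 and 6645 when libraries were scaled by TE reads. Without knockdown 4312 (3.48%) were higher and 7985 (6.45%) lower. The median difference of all TEs after knockdown was -0.16 on the log2 scale, and -0.03 when libraries were scaled by TE reads instead of gene reads. Of the TEs higher after knockdown, 2465 were also higher without it (28.0% of the former, 57.2% of the latter), and of those lower 2676 (34.4% and 33.5%). The genotype difference changed with knockdown for 1647 TEs upward (1.33%) and 586 downward (0.473%). With few reads per element, 398 of the 8799 higher elements passed that test in the same direction. TEs called higher were longer (median 862 bases, beside 184 for all tested), and 31.5% of them lay on KAP1 regions and 29.0% on H3K9me3 regions mapped in ESCs, beside 8.15% and 7.73% of all. Short SINEs made up 65077 of all tested but 1860 of the higher, with 0.403% of tested SINEs on KAP1 regions. Within LTR elements 43.8% of the higher and 21.5% of all tested lay on KAP1 regions, and within LINEs 36.1% and 14.5%. Any overlap counted, which favours long elements. The shares hold for elements that passed the read minimum, some only through libraries where they are high. TEs called lower had a median length of 233 bases, and 9.64% lay on KAP1 regions. Of these, 40.2% were inside a gene on the same strand, beside 55.2% of all tested, and 13.1% inside a gene called lower, beside 2.53%. Of the TEs called higher, 8.35% were inside a gene called higher, beside 2.64%. Reads of transcripts that run through an element are counted with it.

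When the reads of each repeat name were summed, 54 of 837 sums (6.45%) were higher and 31 (3.70%) lower after knockdown. The genotype difference of the IAP sums varied between their types. The IAPEz sum, over 2988 internal parts with or without LTRs, stood at 4587, 5687 and 5556 CPM in WT and at 9566, 7406 and 6597 CPM in DNMT TKO knockdown libraries, against 94.9 to 113 and 73.4 to 135 CPM without knockdown. All 3 DNMT TKO libraries were above the WT ones, but the difference, 0.57 (log2, SE 0.211, adjusted p = 0.0536), did not pass. Split by LTR, IAPEz with IAPLTR1 differed by 0.44 (adjusted p = 0.126). IAPEz with IAPLTR2 was at 935, 1185 and 1159 against 2682, 2018 and 1894 CPM and was called higher at 1.01 (SE 0.209, adjusted p = 0.00332), a value at the fold threshold. It lies below that threshold under some other settings. The sum called IAPEY3 was at 98.9, 108 and 109 against 435, 316 and 321 CPM, and this difference grew with knockdown by 1.26 (adjusted p = 0.000164). The solitary or LTR-named sums IAPLTR2_Mm, IAPLTR2b and IAPLTR3 were higher by 1.04, 1.36 and 1.503. IAPLTR1a_Mm differed little after knockdown, with levels given among the flagged results, and IAP-d was not called.

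Other ERVs moved both ways. ETnERV3 stood at 52.8, 79.8 and 80.5 CPM in WT and 439, 615 and 724 CPM in DNMT TKO knockdown libraries (3.06, adjusted p = 0.000404). Over its 73 tested elements the median difference was 2.02 (log2) without knockdown and 1.01 after it. After knockdown 28 of them were called higher and 7 lower, beside 7.10% and 6.29% of all TEs. Such a median weighs elements alike, whatever their reads, and is another measure than the sum. RLTR45 was at 140, 327 and 260 against 1013, 882 and 869 CPM, and was higher by 3.14 without knockdown. MuLV, a sum over gammaretroviral elements, was at 165, 183 and 191 against 9.41, 6.96 and 6.27 CPM (-4.58, adjusted p = 1.59e-13). MERVL, which marks the 2-cell state, was at 2004, 2542 and 2521 against 1276, 2320 and 1639 CPM, and the groups overlap (-0.43, SE 0.350, adjusted p = 0.355). Of its 1072 tested elements, 192 (17.9%) were lower and 43 (4.01%) higher, beside 6.29% and 7.10% of all TEs. MMERVK10C (-0.19), MMETn (-0.31) and ETnERV (-0.08) were not called, and their groups overlapped. RLTR4_MM was higher by 1.10 in DNMT TKO cells without knockdown and lower by 0.55 after it, a change of -1.65 (adjusted p = 0.000164).

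**Figure D4:**
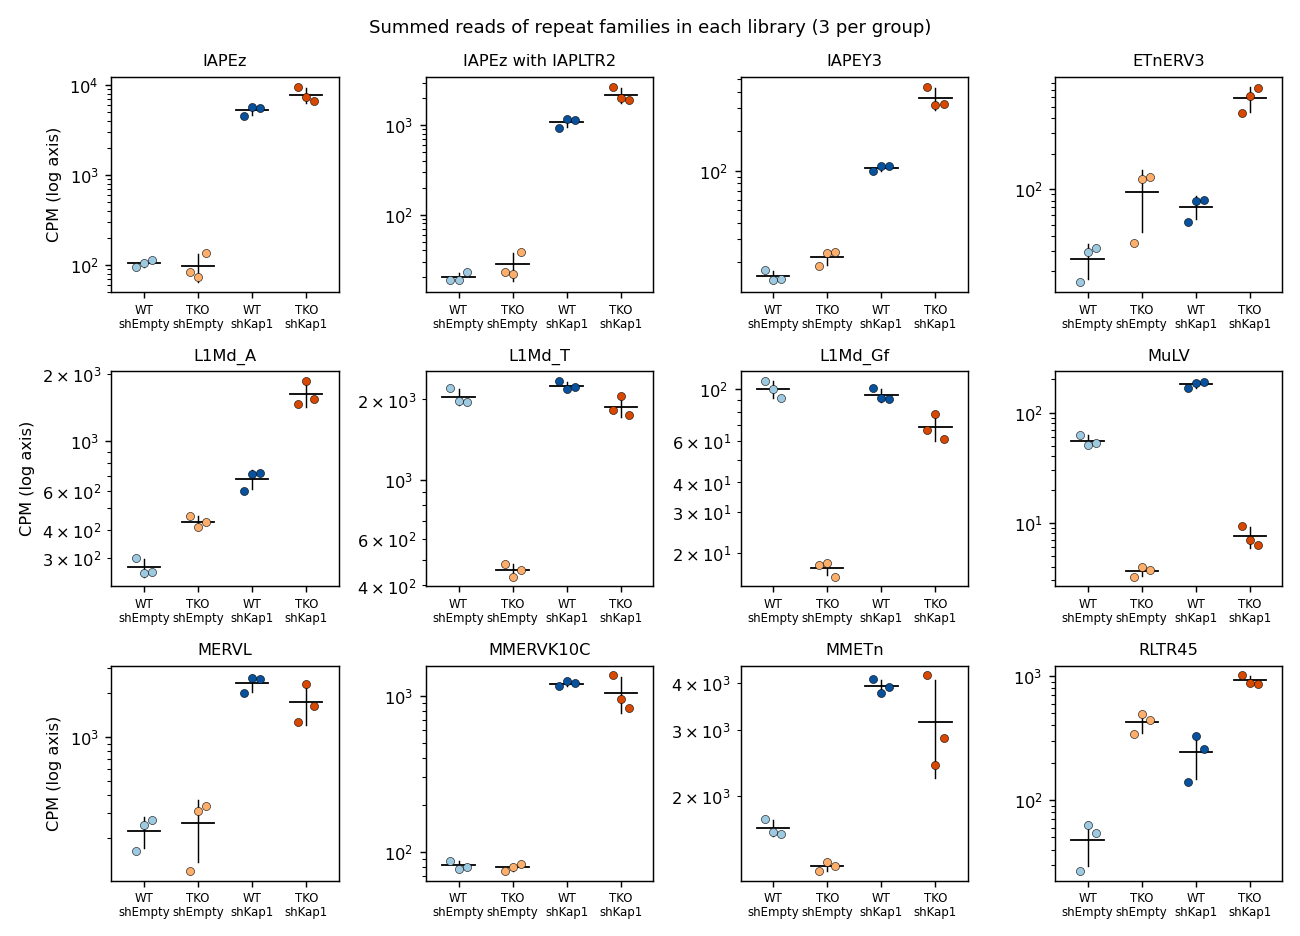
Points are libraries, 3 per group, of WT and DNMT TKO (TKO) cells with the empty or the Kap1 hairpin, for the summed reads of 12 repeat names on log axes of CPM that differ in range between panels. Horizontal lines are group means and vertical lines 1 SD. L1Md_T and L1Md_Gf are low in DNMT TKO shEmpty libraries alone, MuLV is low in DNMT TKO cells with either hairpin, and L1Md_A is highest in DNMT TKO shKap1 libraries (1465 to 1861 CPM).

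Young L1 elements divided by their subfamily. L1Md_A stood at 599, 712 and 719 CPM in WT and at 1465, 1861 and 1554 CPM in DNMT TKO knockdown libraries (1.27, SE 0.0948, adjusted p = 2.3e-07), and at 256 to 300 against 413 to 463 CPM without knockdown. The change with knockdown was 0.58 (adjusted p = 0.0103), short of 2-fold. Of its 3778 tested elements, 1220 (32.3%) were higher and 51 (1.35%) lower, beside 7.10% and 6.29% of all TEs. Elements near 0 in WT cells passed the read minimum only through libraries that express them, so that these shares hold for tested elements alone. Of the 1220, 74.0% lay on KAP1 regions and 51.2% on H3K9me3 regions, beside 46.5% and 30.8% of the L1Md_A elements called neither, and their median length was 5772 bases beside 5244. L1Md_T showed another pattern. It was at 1961 to 2207 CPM in WT and 432 to 480 CPM in DNMT TKO shEmpty libraries, a difference of -2.17 (adjusted p = 6.55e-07). After knockdown it was at 2344, 2185 and 2229 against 1822, 2060 and 1747 CPM, a difference of -0.26 (SE 0.139, adjusted p = 0.158), and the change was 1.90 (adjusted p = 7.78e-05). Of 6515 tested elements, 786 changed upward and 3 downward, beside 1.33% and 0.473% of all TEs. L1Md_Gf was at 91.7 to 108 against 15.9 to 18.2 CPM without knockdown and 90.2 to 101 against 61.4 to 78.5 CPM after it (change 2.07, adjusted p = 4.34e-11). L1Md_F2 (0.07) and L1_Mus1 (0.04) did not pass, and of all repeat classes LINE (0.05), LTR (0.12), SINE (-0.11) and DNA (-0.18) none reached 2-fold.

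Single elements differed within a family in either direction. Of 2550 tested IAPEz elements, 927 (36.4%) were higher and 107 (4.20%) lower, beside 7.10% and 6.29% of all TEs, and 99.7%, 100% and 99.1% of those called higher, lower and neither lay on KAP1 regions. Here too the shares hold for elements that passed the read minimum, some only through libraries where they are high. The 8 elements named for their rise had 0 reads in WT knockdown libraries, and 6 of them fall in 2 stretches. On chromosome 9 an MT2B2 element (chr9:98681103-98681665, mm9, 61.3 kb from Prr23a, outside genes) was at 20.8, 16.04 and 15.7 CPM in DNMT TKO knockdown libraries, at least 352-fold higher, with at most 0.154 CPM in any shEmpty library. An MTEb and an L1_Mus3 element nearby were at least 245-fold and 177-fold higher. On chromosome 8 an MLT1L element (chr8:89332787-89332969, 32.1 kb from N4bp1) was at 13.7, 14.6 and 15.6 CPM, at least 299-fold higher, and an L1MB5 and an MTD element nearby at least 210-fold and 177-fold. Elements of one stretch on the same strand may share a transcript and are not independent. An Lx3B element on chromosome 2 (chr2:174845929-174846553, 1.18 kb from Gm14444) was at 13.9 to 18.8 CPM after and 14.2 to 20.0 CPM without knockdown in DNMT TKO cells, at least 319-fold above WT after knockdown. An RMER17A2 element on chromosome 11 (chr11:121765968-121766325, 0.764 kb from Gm12588) was at least 174-fold higher.

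The 8 elements named for their fall were expressed in WT knockdown libraries and had at most 1 read in DNMT TKO ones. An RLTR4 element with both LTRs (chr8:125949704-125951484, minus strand, within the span of Gm20388 on the other strand) stood at 11.4, 22.3 and 22.7 CPM in WT knockdown libraries, at 0 in DNMT TKO ones, and at no more than 0.0708 CPM in any shEmpty library, at least 437-fold lower. An ETnERV element with RLTRETN_Mm and RLTR13G (chr8:87682996-87686089, 9.13 kb from Gm6531) was at 29.4, 29.5 and 32.5 CPM in WT and at 1 read in DNMT TKO knockdown libraries, and at 0.333 to 0.460 CPM in WT shEmpty libraries. An IAPEz element with IAPLTR2b (chr12:19714551-19715616, 101 kb from Gm9257) was at 8.13, 10.7 and 11.2 CPM against 0, at least 231-fold lower, and an L1_Mus1 element (chr12:19743917-19744322) on the same strand was at least 234-fold lower. Adjacent L1Md_F2 elements (chr12:23012899-23014753 and chr12:23014754-23015739) lie inside 2410018L13Rik, itself among the genes with the largest falls (15.2, 18.8 and 19.1 against 0, 0.0470 and 0.185 CPM), and were low in DNMT TKO cells with either hairpin. An Lx3C and an ORR1B2 element on chromosome 12 were at least 205-fold and 130-fold lower. Of these 8, 6 lie on chromosome 12, where 5.45% of tested genes were lower, beside 8.37% of all genes. Elements of one stretch, such as the adjacent L1Md_F2 pair, may share a transcript and are not independent. The share of all tested TEs on that chromosome was not counted, so that no grouping is shown.

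Genotype differences were not even over chromosomes. The median difference over genes after knockdown was 0.38 (log2) on chromosome 11, with 16.7% of 1720 genes higher and 5.00% lower, and -0.26 on chromosome 6, with 14.5% of 970 genes lower. Without knockdown the medians were 0.29 and -0.29. Chromosome 8 was at -0.08 and -0.18 and chromosome 16 at 0.11 and 0.05, and the others lay between -0.04 and 0.06 after knockdown. Rassf4, Sgce and Stk31 lie on chromosome 6, and Xaf1, Col1a1 and Hoxb1 on chromosome 11. With the genes of chromosomes 6, 8 and 11 left out, 1821 of 16623 genes were higher and 1312 lower after knockdown.

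**Figure D5:**
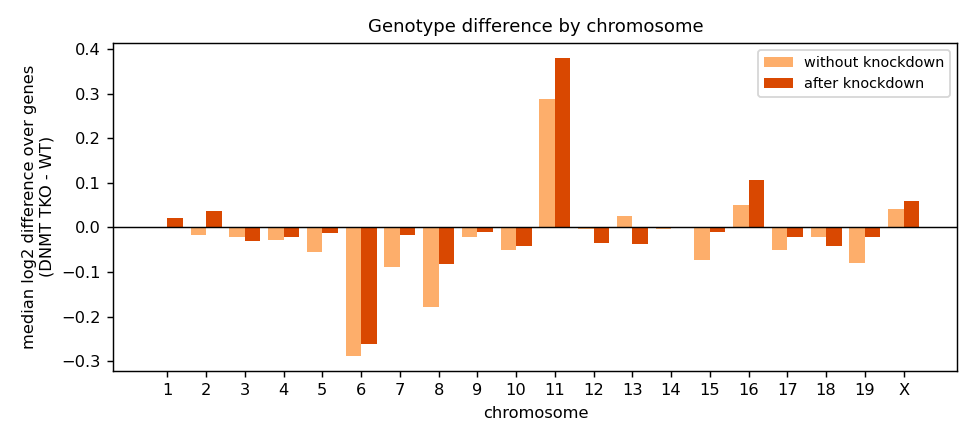
Bars give the median log2 difference between DNMT TKO and WT cells over the tested genes of each chromosome, without knockdown (light) and after it (dark). Chromosome 11 (0.29 and 0.38) stands above and chromosome 6 (-0.29 and -0.26) below the others with either hairpin.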

How the data were processed

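The values are read counts deposited by the authors, per gene and per TE. Per the study's methods, single-end reads of stranded mRNA libraries were aligned to mm9 with HISAT2 (2.0.1 in the submitters' processing notes) and kept when unique. They were counted by strand with featureCounts over exons (1.5.1 in the notes, 1.5.0-p1 in the file headers) and with bedtools multicov over a merged RepeatMasker track. Unique reads undercount young, near-identical TEs, and no global shift in RNA output can be seen after scaling.

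Here the counts were fitted with edgeR 4.0.16 (R 4.3.3), quasi-likelihood with robust dispersion, over all 16 RNA-seq libraries and their 6 groups. A minimum of 16 reads over these libraries was required of each feature, libraries were scaled by TMM factors of genes, and p-values were adjusted by Benjamini-Hochberg over all features. limma-voom (limma 3.58.1), the tool of the study, and DESeq2 1.42.0 were alternatives. The fit was also run on simulated counts, with the same spread for every feature and changes planted only in features with enough reads. This run does not cover sparse TEs.

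Genes named are the targets, the 15 largest rises and falls (at least 300 reads over 6 libraries, groups apart), the 4 smallest adjusted p among called members of each list, the 8 largest changes with knockdown in each direction, fixed TE families and 8 elements in each direction. Comparisons, gene lists and this rule were chosen with earlier results of these data known. Replicate numbers were checked for pairing. Same-numbered libraries correlated without knockdown (Pearson's r over genes 0.317, 0.135 and 0.148) and not throughout after it (0.143, 0.0657 and 0.0237). Without knockdown libraries of other numbers also correlated (DNMT TKO 2 with WT 3 at 0.189, DNMT TKO 3 with WT 2 at 0.116), so that replicate 1 stands apart from 2 and 3. Regions of KAP1, H3K9me3, H3K4me3 and H3K27me3 are deposited region sets. hMeDIP-seq and ChIP-seq values and TET TKO libraries were not compared.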

Additional observations from a re-analysis of the deposited data

Results flagged for a closer look

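For the genes and repeat sums that follow, the genotype difference after knockdown and that without it differ by the test of the difference itself (edgeR, adjusted p below 0.05 and at least 2-fold). Values are log2 differences after knockdown minus those without, and no cause is weighed.

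Upward changes among genes named for their rise or for their change with knockdown were 4.40 for Spesp1, 6.87 for 1700018A04Rik, 9.83 for Gm14047, 7.27 for Rassf4, 12.00 for D930020E02Rik, 7.00 for Olfml2a, 6.81 for Sh3tc2, 6.21 for 1190002H23Rik and 4.98 for Pramel7. Trim28 itself changed by 1.28. The values for Gm14047 and D930020E02Rik depend on the prior count, since 1 group had 0 reads.
Upward changes among list members were 1.47 for Xlr3a, 1.98 for Xlr4b, 1.34 for Pcdha11, 1.37 for Tbx3, 3.16 for Tcl1, 2.26 for Prdm14, 1.40 for Gsc, 2.37 for Col1a1, 3.09 for Pmaip1, 1.49 for Xaf1, 2.54 for Oas1g and 1.84 for Oas1a. Gm6673, a pseudogene low in DNMT TKO cells in both states, changed by 1.79.

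Downward changes were -5.19 for AA792892, -8.60 for Ctsh, -3.53 for Chit1, -1.80 for Ncan, -1.17 for Zfp42, -1.63 for Sgce, -2.23 for Dub3, -2.44 for Dub1 and -1.43 for Krt18. Genes that were closer between genotypes after knockdown changed by -6.88 (Khdc1a), -4.83 (Crygc), -4.74 (Nlrp9b), -4.68 (Dcdc2a), -4.67 (Cyp4a12b) and -4.62 (Gm14443).

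Among repeat sums, IAPEY3 changed by 1.26, IAPLTR1a_Mm by 3.67, IAPLTR2_Mm by 1.06, IAPLTR3 by 1.03, L1Md_Gf by 2.07, L1Md_T by 1.90, MMVL30 by 1.11, RLTR10 by 1.18, RLTRETN_Mm by 1.15 and RLTR4_MM by -1.65. IAPLTR1a_Mm was at 2.12 CPM in WT and 0.180 CPM in DNMT TKO shEmpty libraries and at 4.93 and 5.71 CPM after knockdown.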

How the results depend on the processing

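Counts of calls stayed within 1.5 times of those reported, except as follows. Without a fold threshold 10067 genes passed after knockdown, 8865 without it and 3737 for the change, and 324 repeat sums. For TEs after knockdown the counts were 10937 without a filter, 9136 with at least 10 reads in 3 libraries and 6945 with DESeq2. Without knockdown they were 7957, 7027 and 5955. For the change they were 1314 without a filter, 3562 with limma-voom and 1033 with DESeq2. Without the filter or with the stricter one other sets of TEs are tested; the cause of the differences between tools was not tested. Scaled by TE reads, 5627 TEs were higher and 6346 lower without knockdown, in place of 4312 and 7985.

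With a replicate block 4023 genes, 15715 TEs and 84 sums passed after knockdown, and 3362 genes without it. The block alone in the fit over all libraries changed no count by over 1.5 times. Leaving out 1 library gave 3658 to 3889 genes, 12813 to 14032 TEs and 79 to 87 sums after knockdown, and 1279 to 1529 genes for the change.

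Values that turned sign were near 0 and never called. With TE scaling these were B2_Mm2 (0.019), L1Md_F (0.0068) and L1_Mus4 (0.026). Without 1 library the ranges were -0.32 to 0.019 for ETnERV, -0.19 to 0.22 for ETnERV2, -0.022 to 0.094 for L1Md_F2, -0.038 to 0.088 for L1_Mus1, -0.016 to 0.079 for L1_Mus2, -0.0057 to 0.066 for the LINE class and -0.069 to 0.49 for Crygc. Calls near 2-fold (Mbd2, Neurog1, Thy1, Fas, Atf4, IAPLTR2_Mm) were lost in 1 or more settings. Calls were gained for IAP-d in 3 settings (1.024 to 1.092) and for RLTR1 without DNMT TKO shKap1 replicate 1 (1.065). IAPEz with IAPLTR2 fell below 2-fold in 5, at 0.84 without DNMT TKO shKap1 replicate 1, 0.88 without WT shKap1 replicate 1 and 0.99 with limma-voom. The change with knockdown lost its call for 1700018A04Rik (4.30 without WT shEmpty replicate 3), for Gm14047 (9.36 and 9.56 without WT shEmpty replicates 1 and 3) and for AA792892 (-4.27 and -5.29 without DNMT TKO shEmpty replicates 1 and 2). The 16 named elements kept their calls in all 256 combinations of element and setting. They were chosen as the largest called differences in the same libraries, so that this gives them no support.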
